A study of Mus musculus with 150 samples.

Results

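The genes described are the receptors of the GDNF family of neurotrophic factors: Ret and its co-receptors Gfra1, Gfra2, Gfra3 and Gfra4. They were chosen by name, as 5 of the 54082 genes in the count table, and all 5 had counts. The study sequenced 150 single mouse somatosensory neurons by Smart-seq, each labelled by the type of skin it innervated. All neurons came from CD1 mice from Charles River, an outbred strain, with no gene deleted and no treatment named in the labels. Of these neurons, 45 were labelled hairy skin, 1 carried both labels and entered no comparison, and the others were labelled glabrous skin, the hairless skin of the paw. The animals were 5 days old (8 litters) or 4 days old (33 neurons, 2 litters), and hairy and glabrous neurons of the same litter were compared with the litter as the replicate. The labels do not say by what method a neuron was tied to its skin, nor which pup of a litter it came from, and a litter label that holds several letters was used as 1 litter.

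GDNF family ligands bind a co-receptor that is tethered to the outer membrane by a lipid anchor, and the complex activates Ret, a receptor tyrosine kinase. GDNF binds mainly the product of Gfra1, neurturin that of Gfra2, artemin that of Gfra3 and persephin that of Gfra4, so the co-receptor a neuron makes largely sets the ligand to which its Ret can respond. In the skin sensory system, Ret is known from rapidly adapting touch neurons with myelinated A-fibres, from C-fibre touch neurons and from C-fibre nociceptors. Neurofilament heavy chain (Nefh) is high in neurons with myelinated fibres, and at a threshold of 500 counts-per-million (CPM) it separated Nefh-high neurons (19 hairy, 84 glabrous) from 46 Nefh-low neurons (26 hairy, 20 glabrous). No neuron lay between 377 and 623 CPM of Nefh.

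The co-receptors are paralogues, so it was first asked whether reads could be shared between them. In the GENCODE M21 annotation of GRCm38 (mm10), Ret lies at chr6:118151745-118197718 on the minus strand, Gfra1 at chr19:58235604-58455909 on the minus strand, Gfra2 at chr14:70890120-70979838 on the plus strand and Gfra4 at chr2:131039632-131043088 on the minus strand. No pair of these genes had a run of 31 bases in common in any annotated transcript. The closest pair was Gfra1 and Gfra2, whose coding sequences share a run of 28 bases, against 10 to 12 bases in the other pairs. No shared run was thus as long as a read (75 bases, per the labels). An antisense gene, Gm16277, overlaps Gfra1 and held 34 counts over all neurons, and the microRNA gene Mir6973b inside Gfra4 held 0.

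Total counts per neuron ran between 395811 and 1053854, with a median of 703718 in hairy and 761492 in glabrous neurons, so that 10 CPM, the level at which a gene was called positive, corresponded to about 7.34 counts. Tubulin marked neurons with little neuronal RNA: none of the Nefh-high neurons and 12 of the 46 Nefh-low neurons had under 1000 CPM of Tubb3, the pan-neuronal tubulin. RNA of glia was present too, with a median summed level of 7 Schwann cell markers of 1472 CPM in Nefh-high neurons and 4415 CPM in Nefh-low neurons, and of 3128 CPM in hairy and 1569 CPM in glabrous neurons. Plate and skin type were linked in the design, since plate 1 held 10 hairy and 85 glabrous neurons and plate 2 held 35 hairy and 19 glabrous neurons.

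Ret had the highest median level per kilobase of exon in each class as a whole. In Nefh-high neurons Ret ran between 0 and 2065 CPM with a median of 161, which is 23.8 CPM per kb, and in Nefh-low neurons between 0 and 1289 CPM with a median of 432, which is 63.9 CPM per kb. Among the co-receptors, the order of median levels per kb differed between the classes. In Nefh-high neurons it was Gfra4 (15.9 CPM per kb), Gfra1 (7.54), Gfra2 (2.64) and Gfra3 (0), and in Nefh-low neurons Gfra3 (28.4 CPM per kb), Gfra4 (13.96), Gfra2 (10.1) and Gfra1 (0.908). The ranges of neighbouring genes in both orders overlapped among neurons, so these orders describe medians and not single cells. By the mean, Nefh-low neurons held 166.5 CPM per kb of Gfra3 and 66.1 CPM per kb of Ret. In the 20 glabrous Nefh-low neurons the median too was higher for Gfra3, at 101.4 CPM per kb against 42.5 CPM per kb for Ret. These co-receptor orders, and Gfra3 above Ret, rest on the division by length. In plain CPM Ret was above Gfra3, at a Nefh-low mean of 446.8 against 332.6 and a glabrous Nefh-low median of 287.1 against 202.4. Plain medians put Gfra1 (41.3) above Gfra4 (34.5) in Nefh-high neurons, and Gfra2 (35.6) above Gfra4 (30.2) in Nefh-low neurons. Over 13183 genes, mean counts were hardly correlated with exon length (Spearman 0.007).

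The 4 co-receptors differed in how they were spread over neurons. Gfra4 was even: it ran between 9.56 and 93.2 CPM in Nefh-high neurons (median 34.5) and between 0 and 98.2 CPM in Nefh-low neurons (median 30.2). Gfra3 was the opposite, at 0 CPM in the median Nefh-high neuron but up to 751 CPM in others, and at a median of 56.8 and a maximum of 1964 CPM in Nefh-low neurons. Gfra1 reached 430 CPM in Nefh-high neurons (median 41.3) and 230 CPM in Nefh-low neurons (median 4.97), and Gfra2 reached 210 CPM in Nefh-high neurons (median 9.35) and 228 CPM in Nefh-low neurons (median 35.6). Gfra1, Gfra2 and Gfra3 were thus each near 0 in some neurons and above 200 CPM in others, whereas Gfra4 stayed below 100 CPM throughout.

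**Figure D1:**
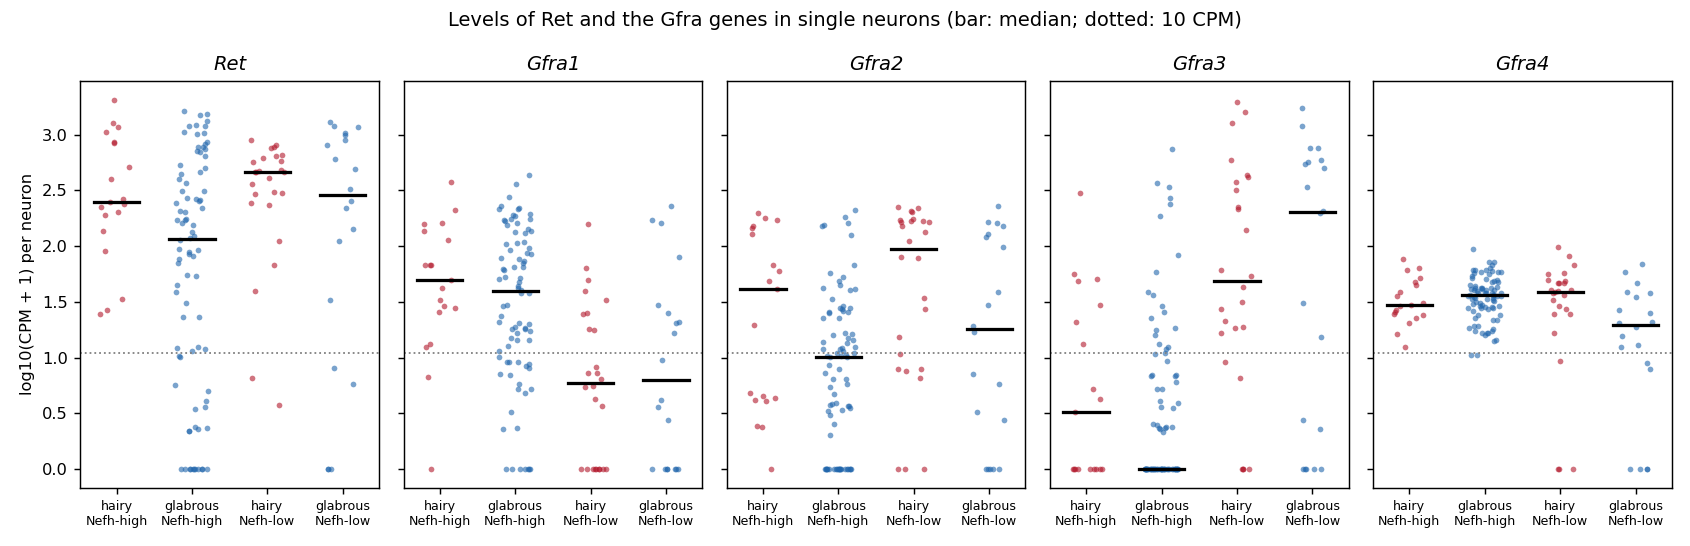
Level of each GDNF family receptor gene in every neuron, as log10(CPM + 1), by Nefh class and skin type; each point is a neuron, the bar is the median and the dotted line marks 10 CPM. Gfra4 lies in a narrow band apart from some Nefh-low neurons near 0, whereas Gfra3 is near 0 in most Nefh-high neurons and high in many Nefh-low neurons.

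Ret was at 10 CPM or more in most neurons of both classes. Among Nefh-high neurons 80 were Ret-positive and 23 were not (77.7% positive, exact Clopper-Pearson 95% interval 68.4 to 85.3), and among Nefh-low neurons 39 of 46 (84.8%, 71.1 to 93.7). These intervals, and all others on shares of cells, cover counting error only and not the spread between litters. The 7 Nefh-low neurons without Ret were all among those low in Tubb3, at 0 to 444 CPM, with 4360 to 11866 detected genes. With the neurons under 1000 CPM of Tubb3 left out, all 34 remaining Nefh-low neurons were Ret-positive (89.7 to 100%).

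The 23 Nefh-high neurons without Ret were all glabrous, and their Tubb3 level was 1509 to 3389 CPM, within the range of Nefh-high neurons. They were high in receptors of the neurotrophin family, with median levels of 234 CPM of Ntrk2, the receptor of BDNF, and 191 CPM of Ntrk3, the receptor of neurotrophin-3. In the 80 Ret-positive Nefh-high neurons these medians were 24.9 and 58.7 CPM. The neurons without Ret still held co-receptor RNA: Gfra2 was positive in 14 of 23 (60.9%, 38.5 to 80.3) at up to 43.6 CPM, Gfra1 in 7, Gfra3 in 1 and Gfra4 in all 23.

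Nearly every Ret-positive neuron also held a co-receptor other than Gfra4: all 80 of the Nefh-high and 38 of the 39 Nefh-low neurons with Ret had at least 1 of Gfra1, Gfra2 and Gfra3 at 10 CPM or more. In Ret-positive Nefh-high neurons Gfra1, the receptor of GDNF, was the most frequent, in 71 of 80 (88.8%, 79.7 to 94.7). Gfra2 was positive in 35 of 80 (43.8%, 32.7 to 55.3) and Gfra3 in 26 of 80 (32.5%, 22.4 to 43.9). In Ret-positive Nefh-low neurons the order was turned round, with Gfra3, the receptor of artemin, in 33 of 39 (84.6%, 69.5 to 94.1), Gfra2 in 28 of 39 (71.8%, 55.1 to 84.999) and Gfra1 in 16 of 39 (41.03%, 25.6 to 57.9). Gfra4 was positive in 78 of 80 Nefh-high and 35 of 39 Nefh-low neurons with Ret.

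Several co-receptors were commonly present in the same neuron. Among the 80 Ret-positive Nefh-high neurons, 26 had Gfra1 as the only one of Gfra1 to Gfra3, 24 had Gfra1 with Gfra2 and 15 had Gfra1 with Gfra3. All of Gfra1, Gfra2 and Gfra3 were positive in 6 of them, and Gfra2 alone or Gfra3 alone in 4 each. Among the 39 Ret-positive Nefh-low neurons the pair of Gfra2 and Gfra3 was the most frequent (17), followed by all of them together (7) and by Gfra1 with Gfra3 (6).

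**Figure D2:**
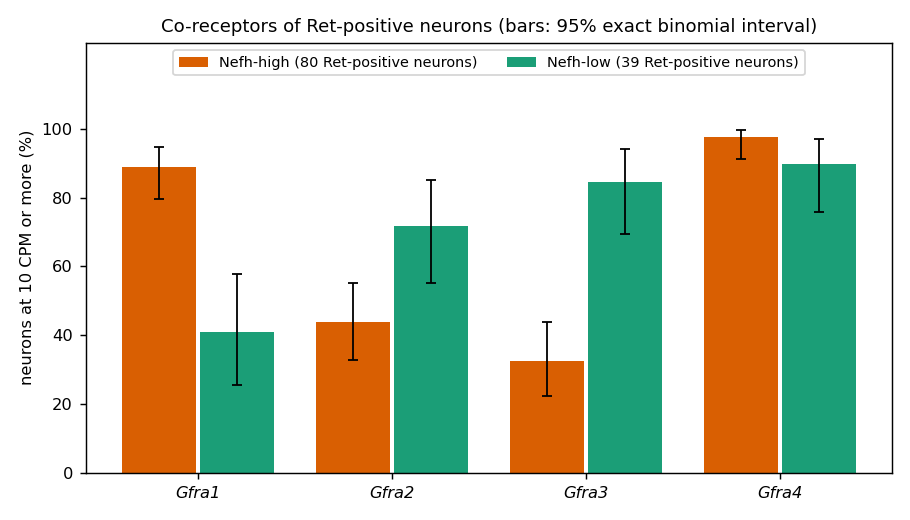
Percentage of Ret-positive neurons (Ret at 10 CPM or more) that also held each co-receptor at 10 CPM or more, by Nefh class; error bars are exact Clopper-Pearson 95% intervals. Gfra1 is at 88.8% in Nefh-high against 41.03% in Nefh-low neurons, and Gfra3 at 32.5% against 84.6%.

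When each Ret-positive neuron was given the co-receptor with the highest level per kb, Gfra1 led in 30 of 80 Nefh-high neurons (37.5%), Gfra4 in 22, Gfra3 in 15 and Gfra2 in 13. In Nefh-low neurons Gfra3 led in 22 of 39 (56.4%), Gfra2 in 13, Gfra4 in 2 and Gfra1 in 1. The Gfra1 share of Nefh-high neurons depended on the settings, being 57.5% with CPM not divided by length, 57.4% (39 of 68) with positive set at 50 CPM and 52.5% per kb with Gfra4 left out. With Gfra4 left out, hairy and glabrous neurons of the Nefh-high class divided differently: Gfra2 led in 9 of 19 hairy neurons, with Gfra1 and Gfra3 in 5 each, whereas Gfra1 led in 37 of 61 glabrous neurons, Gfra3 in 13 and Gfra2 in 11. Of the Ret-positive Nefh-low neurons, 24 hairy ones had Gfra2 leading in 12, Gfra3 in 11 and Gfra1 in 1, and 15 glabrous ones had Gfra3 leading in 11, Gfra2 in 3 and no positive gene in 1. These counts pool litters and were not tested.

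Within each class, the level of Ret went with the level of a particular co-receptor. Over the 19 hairy and 84 glabrous Nefh-high neurons together, the Spearman correlation of Ret was 0.80 with Gfra1, 0.02 with Gfra2, 0.06 with Gfra3 and -0.17 with Gfra4. Over the 46 Nefh-low neurons it was 0.74 with Gfra3, 0.35 with Gfra1 and 0.33 with Gfra2. The neurons share litters, plates and cDNA batches, and in Nefh-low neurons Ret and Gfra3 were also negatively correlated with the summed glial markers (-0.51 and -0.60), so these correlations are a description.

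The same pattern is seen in levels. In Nefh-high neurons the median of Gfra1 was 6.02 CPM in the 23 neurons with Ret under 10 CPM, 25.8 in the 22 with Ret of 10 to under 100, 50.8 in the 31 with 100 to under 500 and 170 CPM in the 27 with 500 CPM or more. Gfra1 was positive in all 27 neurons of that highest band, Gfra2 in 16 and Gfra3 in 3. In Nefh-low neurons the median of Gfra3 was 41.97 CPM in the 19 neurons with Ret of 100 to under 500 CPM and 501 CPM in the 17 with 500 CPM or more, all 17 of which were Gfra3-positive. Gfra2 did not follow this order, with medians of 120.1 CPM and 38.05 CPM in the same bands.

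**Figure D3:**
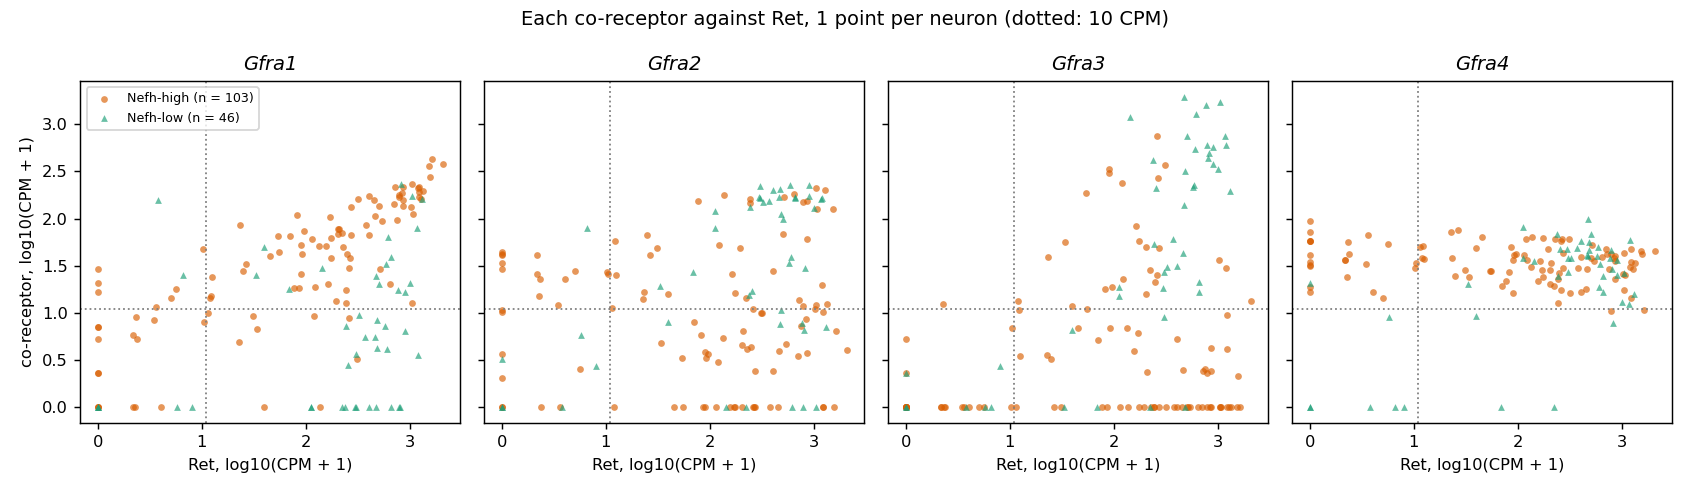
Level of Ret (x axis) against the level of each co-receptor (y axis) in every neuron, both as log10(CPM + 1), with Nefh-high and Nefh-low neurons in different colours and shapes and dotted lines at 10 CPM. Gfra1 rises with Ret among Nefh-high neurons (Spearman 0.80) and Gfra3 among Nefh-low neurons (0.74, 46 neurons).

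Clustering of the neurons on all variable genes gave 8 clusters, which place the co-receptors in kinds of neuron. The members' own levels helped to form the clusters, so the values are descriptive. Cluster 3 (8 hairy and 11 glabrous neurons, 18 of 19 Nefh-high) matched 9 of 10 A-fibre touch neuron markers, Mafa among them, and is called A-fibre low-threshold mechanoreceptor-like; Ret and Gfra2 are on that marker list. It was high in Ret (median 638 CPM) together with Gfra2 (144.3 CPM) and Gfra1 (111.5 CPM), and its median of Gfra3 was 0. Clusters 1 and 4 were led by Calca, Htr3a and Ptgir among others and were mostly Nefh-high. They had Ret at 235 and 155 CPM, with Gfra1 at 70.2 and 60.4 CPM and little Gfra2 (3.70 and 0 CPM). Gfra3 was positive in 15 of the 32 neurons of cluster 1, at up to 370 CPM, and in 5 of the 21 of cluster 4. With Gfra4 left out, Gfra3 was the leading co-receptor in 11 neurons of cluster 1 and in 2 of cluster 4. Clusters 6 and 7, led by Ntrk2 and Ntrk3 among others, were nearly free of Ret, with medians of 3.10 and 2.46 CPM, and their highest co-receptors besides Gfra4 were Gfra2 at 28.3 and 9.35 CPM.

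With Gfra4 left out, the leading co-receptor of Ret-positive Nefh-low neurons was mostly Gfra3 or Gfra2, although both were often positive in the same neuron. Cluster 2, led by Gfra3 and Mrgprd, a receptor of non-peptidergic nociceptors, had Ret at 758 CPM with Gfra3 at 596 CPM. With Gfra4 left out, Gfra3 was the leading co-receptor in all 17 of its neurons, and Gfra2 was positive in 8. Cluster 8 (14 hairy and 3 glabrous neurons), led by Tafa4 and called C-fibre low-threshold mechanoreceptor-like, had Ret at 322 CPM with Gfra2 at 164 CPM. Gfra2, which is on its marker list, led in 14 of its 17 neurons by the same ranking, and Gfra3 was positive in 13. In cluster 8, 6 of 7 Schwann cell and 5 of 5 fibroblast markers were raised as well. Cluster 5, led by Tac1, Calca and collagen genes, mixed Gfra3 (117.8 CPM) with little Gfra2 (15.2 CPM) and had the highest glial level of all clusters, and was left unnamed.

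**Figure D4:**
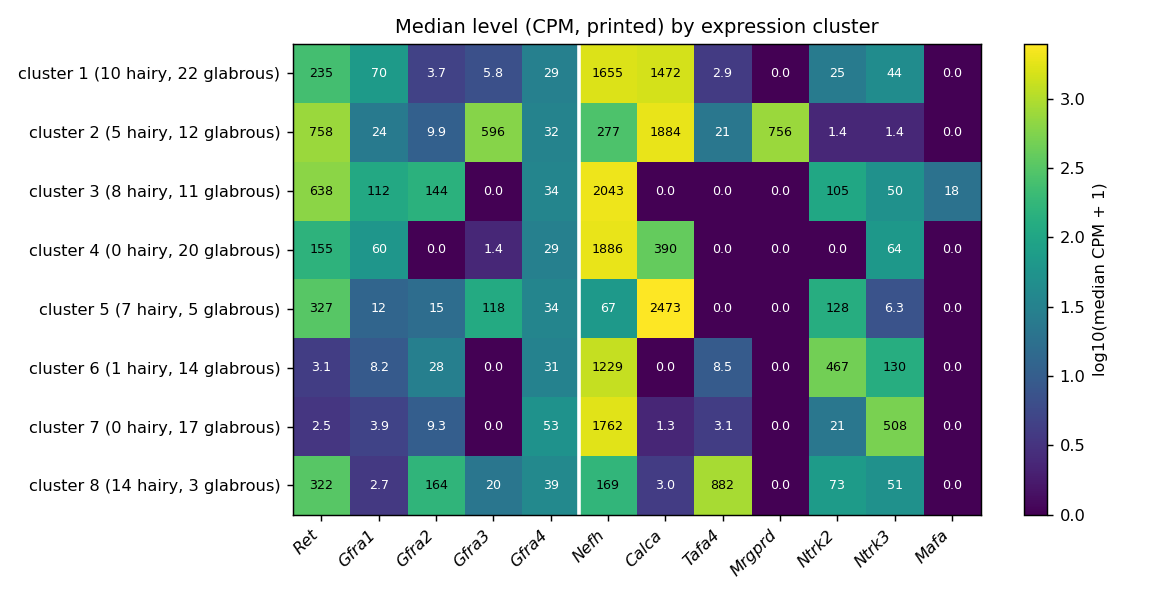
Median level of each receptor gene and of 7 landmark genes in the 8 expression clusters; the CPM are printed in the cells, the colour is log10(median CPM + 1) and the rows give the hairy and glabrous neurons of each cluster. Gfra3 is highest in cluster 2, Gfra2 in clusters 3 and 8, and Ret is near 0 in clusters 6 and 7, where Ntrk2 and Ntrk3 are high.

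The classes were compared on counts summed per litter and class in 7 litters with at least 2 neurons of each. Of 13135 genes tested, 22.7% passed an adjusted p of 0.05 with edgeR's quasi-likelihood test and Benjamini-Hochberg adjustment. Of the 5 members 2 passed, both lower in Nefh-high neurons, a direction in which 11.2% of all genes passed. Gfra2 summed to 3.66, 29.7 and 80.4 CPM (lowest, median and highest litter) in Nefh-high neurons, against 56.4, 92.5 and 120 CPM in Nefh-low neurons. It was lower in Nefh-high neurons in 7 of 7 litters although the ranges overlap, with a log2 fold change of -1.79 (SE 0.42, adjusted p = 0.0131, edgeR). Gfra3 summed to 0, 20.7 and 168 CPM in Nefh-high neurons, against 96.5, 477 and 687 CPM in Nefh-low neurons. It was lower in 7 of 7 litters as well, by -3.46 on the log2 scale (SE 0.81, adjusted p = 0.0130, edgeR).

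The other 3 members did not pass this test. Ret summed to 34.1, 271 and 1604 CPM in Nefh-high neurons, against 197, 432 and 766 CPM in Nefh-low neurons, with a log2 fold change of -1.32 (SE 0.67, adjusted p = 0.187, edgeR). Gfra1 had a log2 fold change of 0.58 (SE 0.83, adjusted p = 0.658, edgeR), with sums of 3.44 to 292 CPM in Nefh-high and 5.43 to 65.6 CPM in Nefh-low neurons. Gfra4 was close to even, at 31.4 to 48.4 CPM in Nefh-high and 23.7 to 45.3 CPM in Nefh-low neurons, with a log2 fold change of 0.25 (SE 0.17, adjusted p = 0.338, edgeR). Without the neurons under 1000 CPM of Tubb3, a filter chosen after seeing the data, Gfra2 (-2.01, adjusted p = 0.00801, edgeR) and Gfra3 (-3.63, adjusted p = 0.0150, edgeR) still passed.

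Some other restrictions ended 1 or both of these calls while the log2 fold changes kept their sign. Without the 37 neurons highest in glial markers, which left 4 litters, Gfra2 was at -1.94 (adjusted p = 0.0283, edgeR) and Gfra3 at -4.21 (adjusted p = 0.0513, edgeR). Within plate 1 (3 litters) the values were -1.45 (adjusted p = 0.0308, edgeR) for Gfra2 and -4.17 (adjusted p = 0.0645, edgeR) for Gfra3, and within plate 2 (4 litters) -2.06 (adjusted p = 0.117, edgeR) and -2.83 (adjusted p = 0.127, edgeR). With Nefh split at 250 CPM, inside the Nefh-low class, Gfra2 was at -1.001 and Gfra3 at -2.29 and neither passed. In glabrous neurons alone (3 litters) Gfra2 was at -1.83 (adjusted p = 0.0362, edgeR) and Gfra3 at -4.01 (adjusted p = 0.0729, edgeR), and in hairy neurons alone (3 litters) neither passed, at -1.72 and -2.96. Of the 7 Schwann cell markers 4 were also lower in Nefh-high neurons in this comparison, with a median log2 fold change of -1.70 over the 7, and the part of glial RNA in the Gfra2 and Gfra3 differences was otherwise not tested.

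As shares of Ret-positive neurons, Gfra2 was present in 43.6% ± 8.56 of Nefh-high and 72.2% ± 12.5 of Nefh-low neurons (SD over 6 litters), a difference that an exact two-sided sign-flip permutation test over litters gave p = 0.0625 (0.167 after Benjamini-Hochberg adjustment over the 4 co-receptors). With the Tubb3 filter it was lower in Nefh-high neurons in 6 of 6 litters by 26.4 percentage points (exact permutation p = 0.0312, the smallest that 6 litters allow, and 0.125 after the same adjustment). The difference depended on the level called positive. At 50 CPM Gfra2 was present in 18.2% of Nefh-high and 56.1% of Nefh-low neurons with Ret. It was lower in Nefh-high neurons in 5 litters and equal in 1 (exact permutation p = 0.0625, 0.0833 after the same adjustment). At 1 count, over 7 litters, Gfra2 was present in 86.2% of Nefh-high and 83.9% of Nefh-low neurons with Ret. It was then higher in Nefh-high neurons in 3 litters, lower in 2 and equal in 2 (exact permutation p = 0.875). Gfra3 was present in 53.6% ± 26.3 of Nefh-high and 84.7% ± 8.19 of Nefh-low neurons (exact permutation p = 0.0938), and Gfra1 in 73.7% ± 37.9 and 47.2% ± 26.7 (exact permutation p = 0.25). These comparisons of shares by class were added after seeing the data, and those with only 6 litters cannot give a p under 0.0312.

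Genes around the receptors were read from the same comparison. Of 10 genes for GDNF ligands and alternative receptors, only Ncam1, Sdc3 and Sorl1 had enough counts to be tested, so the ligands Gdnf, Nrtn, Artn and Pspn were not tested. Ncam1 and Sdc3, which code for surface molecules that can bind GDNF, were both lower in Nefh-high neurons, with log2 fold changes of -0.92 (adjusted p = 0.00202, edgeR) and -0.65 (adjusted p = 0.0389, edgeR). Of 26 genes for Ret signalling 22 were tested, and 3 were higher and 6 lower, beside 11.6% higher and 11.2% lower over all genes, with a median log2 fold change of -0.29 against -0.05 over all genes. The adaptor genes Dok5 (3.58, adjusted p = 0.000462, edgeR) and Shc3 (2.81, adjusted p = 0.0062, edgeR) and the phosphatase gene Ptprs (0.56) were higher. The adaptor genes Gab1 (-1.34, adjusted p = 0.000665, edgeR), Shc1 (-1.07) and Dok4 (-0.61) and Lrig1 (-1.83), which codes for an inhibitor of Ret, were among those lower.

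Of 13 genes listed as targets or feedback genes of the pathway, or as transcription factors linked to it, 11 were tested. Whether any of them responds to Ret was not tested. Maf (1.68) and Spred1 (0.73) were higher in Nefh-high neurons, and Runx1 (-4.37, adjusted p = 7.53e-05, edgeR), a transcription factor of Nefh-low sensory neurons, and the phosphatase gene Dusp6 (-1.25) were lower. All 5 neurotrophin receptor genes were tested, and Ntrk3 (2.73, adjusted p = 0.000603, edgeR) and Ngfr (2.37, adjusted p = 0.00155, edgeR) were higher while none was lower.

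The study's main question was how neurons of hairy and glabrous skin differ, and for it the counts of each litter's neurons were added up by skin type in 7 litters with at least 2 neurons of each. Of 12852 genes tested, 0.0934% passed with edgeR (0.0389% higher and 0.0545% lower in hairy neurons), and none of the 5 members was among these 12 genes. Gfra2 and Gfra1 came closest, in opposite directions. Gfra2 summed to 61.1, 102.6 and 177 CPM (lowest, median and highest litter) in hairy neurons, against 3.37, 33.2 and 56.7 CPM in glabrous neurons. The groups did not overlap, and Gfra2 was higher in hairy neurons within 7 of 7 litters, with a log2 fold change of 2.27 (SE 0.54, unadjusted p = 0.00191, adjusted p = 0.198, edgeR). Of the 12852 genes, 1277 had an unadjusted p under 0.05 with edgeR. How many of them had groups without overlap or agreed in 7 of 7 litters was not counted, so neither trait is shown to be unusual. In the same comparison 5 of the 6 tested markers of C-fibre touch neurons, a list that includes Gfra2, had positive values, with a median log2 fold change of 2.06, and 1 passed (Zfp521, 1.86). The Spearman correlation of Gfra2 with the summed glial markers was 0.45 over all neurons, 0.48 over Nefh-high neurons and 0.06 over Nefh-low neurons. Without the neurons highest in glial markers, which left 5 litters, the Gfra2 difference was 2.02 (adjusted p = 0.692, edgeR), and the part of C-fibre touch neurons in it was not tested.

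Gfra1 summed to 2.75, 23.5 and 87.99 CPM in hairy neurons, against 8.47, 70.1 and 131.5 CPM in glabrous neurons. The groups overlap across litters, yet hairy neurons were lower within 7 of 7 litters, with a log2 fold change of -1.28 (SE 0.31, unadjusted p = 0.00238, adjusted p = 0.208, edgeR). DESeq2 on the same sums called both genes, with adjusted p = 0.00488 for Gfra1 and adjusted p = 0.000225 for Gfra2, as did edgeR with no filter on low counts, so the call turned on the tool and on the filter while the direction did not. The direction of both also held within each plate: Gfra2 had a log2 fold change of 2.46 in plate 1 (3 litters) and 2.85 in plate 2 (4 litters), and Gfra1 of -2.08 and -0.92. In a sum over mixed neurons, more neurons of a kind and more RNA per neuron cannot be told apart.

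Ret, Gfra3 and Gfra4 were far from passing. Ret summed to 123.6, 471 and 849 CPM in hairy neurons, against 25.9, 323 and 705 CPM in glabrous neurons, with a log2 fold change of 0.40 (SE 0.48, adjusted p = 0.832, edgeR). Gfra3 ran over 1.20 to 579 CPM in hairy and 0.529 to 428 CPM in glabrous neurons, with a log2 fold change of -0.45 (SE 1.496, adjusted p = 0.949, edgeR) and a sign that differed between the plates. Gfra4 was at 18.0 to 51.95 CPM in hairy and 28.1 to 46.3 CPM in glabrous neurons, with a log2 fold change of -0.11 (SE 0.23, adjusted p = 0.906, edgeR).

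**Figure D5:**
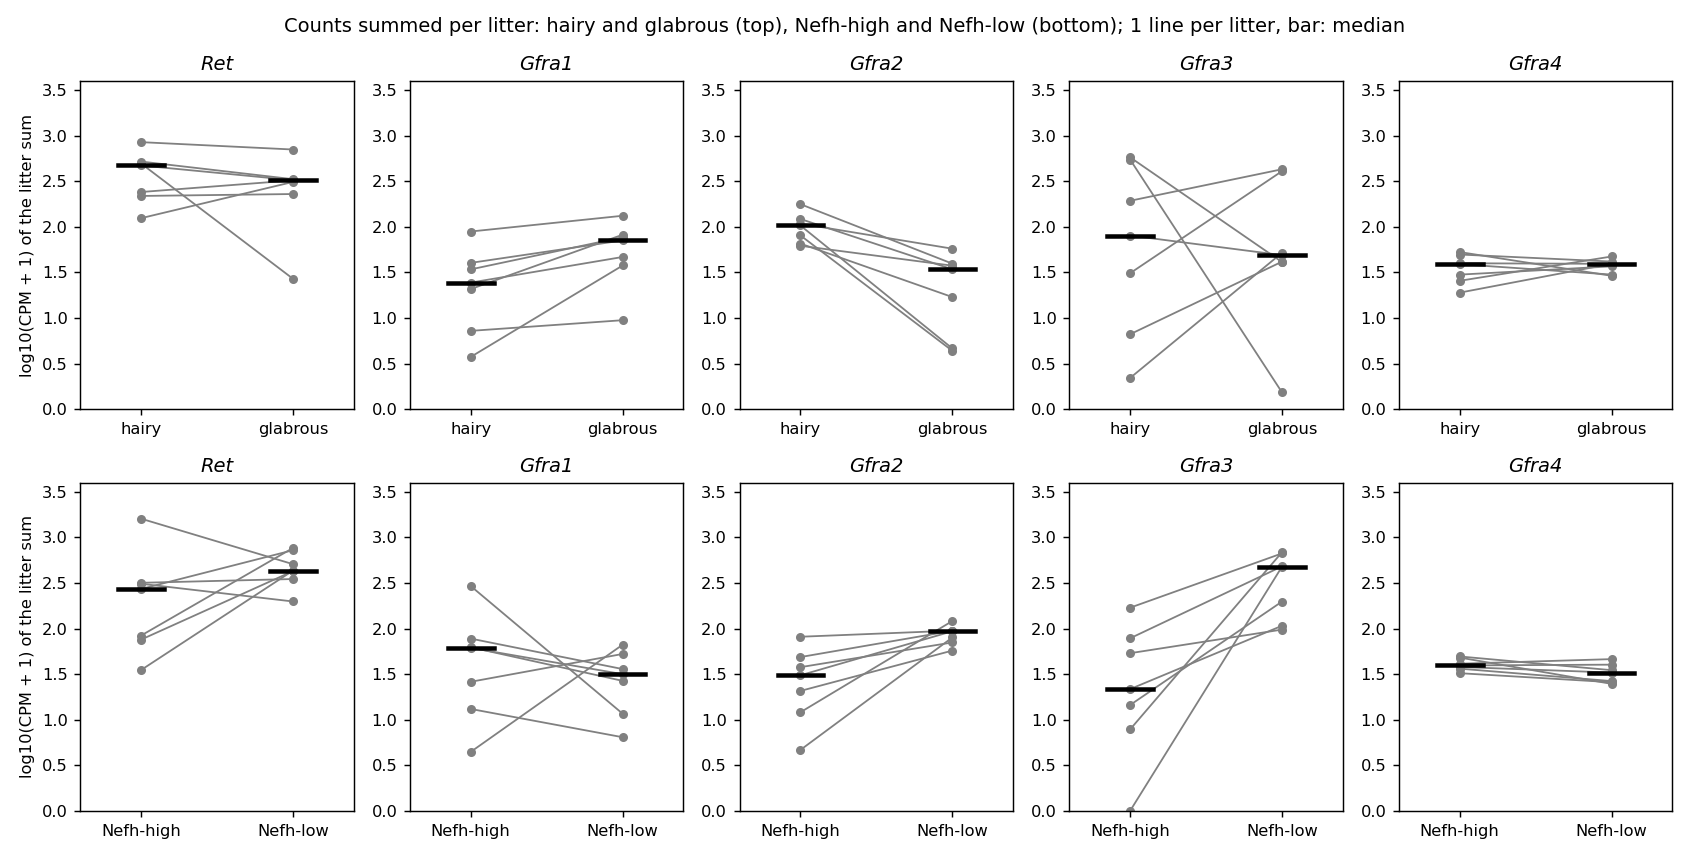
Summed level of each receptor gene per litter, as log10(CPM + 1), for hairy and glabrous neurons of 7 litters (top) and for Nefh-high and Nefh-low neurons of 7 litters (bottom), with a line joining each litter's pair and a bar at the median. The hairy sums of Gfra2 (61.1 to 177 CPM) all lie above the glabrous sums (3.37 to 56.7 CPM), Gfra1 is lower in hairy neurons in 7 of 7 pairs, and Gfra3 is lower in Nefh-high neurons in 7 of 7 pairs. How many of all tested genes show such patterns was not counted.

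Counted by neuron, Ret was positive in 43 of 45 hairy neurons, and in 76 glabrous neurons. In the 7 litters the share was 98.1% ± 5.04 in hairy and 71.3% ± 23.99 in glabrous neurons (SD), higher in hairy neurons in 5 litters and equal in 2, with exact sign-flip permutation p = 0.0625. That is the smallest p that 5 unequal pairs allow. With positive set at 1 count the share was 100% in hairy and 91.7% in glabrous neurons (exact permutation p = 0.125), a difference of 8.32 percentage points. With positive set at 50 CPM it was 88.1% in hairy and 63.1% in glabrous neurons, higher in hairy neurons in 4 litters, lower in 2 and equal in 1 (exact permutation p = 0.125). In the Nefh-high class 19 of 19 hairy (82.4 to 100%) and 61 of 84 glabrous neurons (72.6%, 61.8 to 81.8) were positive, and in that class alone the difference was 30.3 percentage points over 7 litters (exact permutation p = 0.0625), a comparison added after seeing the data.

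Among Ret-positive neurons, Gfra2 was present in 73.97% ± 24.2 of hairy and 33.1% ± 16.4 of glabrous neurons (SD, 6 litters), higher in hairy neurons in 5 of 6 litters (exact permutation p = 0.0625, 0.25 after Benjamini-Hochberg adjustment over the 4 co-receptors). Gfra1 was present in 63.1% ± 37.7 of hairy and 79.6% ± 18.0 of glabrous neurons (exact permutation p = 0.25, adjusted p = 0.5). That difference of -16.4 percentage points was -9.71 without litter H and -38.3 with positive set at 50 CPM. Gfra3 was present in 48.6% ± 30.9 of hairy and 47.2% ± 31.3 of glabrous neurons (exact permutation p = 0.938), and Gfra4 in 94.6% ± 10.1 and 93.8% ± 10.5 (exact permutation p = 1). None of these differences passed.

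Hairy and glabrous neurons held different mixtures of classes, so the comparison was repeated within each class. In Nefh-high neurons (7 litters, at least 1 neuron per sum) 0 of 12087 genes (0%) passed with edgeR, 729 had an unadjusted p under 0.05, and DESeq2 called 89 genes. Gfra2 summed to 1.45, 59.3 and 179 CPM in hairy neurons, against 3.64, 16.0 and 33.2 CPM in glabrous neurons, and the ranges overlap. The lowest and highest hairy sums, of litters O and H, each came from 1 neuron, as did the hairy sum of litter A_B. Gfra2 was higher in hairy neurons in 5 of 7 litters, with a log2 fold change of 2.13 (SE 0.59, adjusted p = 0.555 with edgeR and 0.0137 with DESeq2). Gfra3 summed to 0, 3.23 and 57.6 CPM in hairy neurons, against 6.49, 47.98 and 204.5 CPM in glabrous neurons, with a log2 fold change of -2.14 (SE 0.91, adjusted p = 0.815, edgeR). Gfra1 was at -0.31 (SE 0.47), Ret at 0.46 (SE 0.42) and Gfra4 at -0.25 (SE 0.22). For Gfra1 this was smaller than the -1.28 over all neurons, a contrast that was not tested itself.

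In Nefh-low neurons only 5 litters could be compared, 3 of them with a single glabrous neuron. Of 11055 genes 0 (0%) passed with edgeR, with 55 at an unadjusted p under 0.05 and 4 called by DESeq2. Gfra2 summed to 87.4, 174.5, 107.5, 113.5 and 107.99 CPM in hairy neurons of litters E_F_G, H, L, M and O, against 98.1, 66.7, 1.75, 150 and 0 CPM in glabrous neurons of the same litters. The hairy sums were even, whereas the glabrous sums of 2 litters, each from 1 neuron, were near 0. The log2 fold change was 2.11 (SE 1.51) for Gfra2, 0.74 (SE 1.56) for Gfra3, 0.39 (SE 1.00) for Ret, 1.13 (SE 1.20) for Gfra4 and -1.09 (SE 1.48) for Gfra1, all with adjusted p = 0.995 (edgeR), beside a median of 0.56 over all genes. Leaving out the neurons low in Tubb3 turned the sign for Ret (-0.44) and Gfra3 (-0.57).

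A test of whether the skin difference itself differed between the classes passed for 0 of 12914 genes (0%; edgeR), with 709 at an unadjusted p under 0.05 and 53 called by DESeq2, and for none of the members. The nearest was Gfra4, with an interaction of -1.32 on the log2 scale (SE 0.65, adjusted p = 0.906, edgeR), and Gfra2 had 0.44 (SE 1.25). In the lists of related genes, none passed between hairy and glabrous neurons of all classes together; the smallest p-values were those of Sorl1 (-1.40, adjusted p = 0.138), Ptprs (-0.78, adjusted p = 0.186), Runx1 (2.72, adjusted p = 0.170) and Ntrk3 (-1.65, adjusted p = 0.170), all with edgeR. Within Nefh-high neurons the first in each list were Sorl1 (-1.55), Pik3ca (-0.99), Dusp6 (0.56) and Ntrk3 (-1.58), and none passed.

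Age was compared in glabrous neurons, with 7 litters at day 5 and 2 at day 4, and 0 of 15185 genes (0%) passed with edgeR, with 422 at an unadjusted p under 0.05 and 3 called by DESeq2. Ret summed to 25.9, 325 and 551 CPM (lowest, median and highest litter) at day 5, and to 705 and 323 CPM in the litters at day 4. Gfra1 summed to 8.47, 50.7 and 81.1 CPM at day 5, and to 131.5 and 70.1 CPM at day 4. Gfra3 ran over 0.529 to 428 CPM at day 5, and was at 40.6 and 47.98 CPM at day 4. The ages overlapped for every member, and the log2 fold changes of day 5 over day 4 were -0.80 for Ret, -0.92 for Gfra1, 0.16 for Gfra2, 1.89 for Gfra3 and 0.04 for Gfra4. The glabrous neurons of both day 4 litters (K and P_Q, 7 each) were all Nefh-high. Every day 5 litter but C_D also held Nefh-low ones, such as litter I with 21 Nefh-high and 10 Nefh-low neurons. Age and the mixture of classes thus cannot be told apart here.

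The genes whose levels were most like each member's were taken over all hairy and glabrous neurons from 12449 genes, by Spearman correlation of log2(CPM + 1). For Ret these were Dpp6 (0.61), Rnf125 (0.61), Tceal9 (0.59), Meis1 (0.59) and Scn11a (0.54). For Gfra1 they were Meis2 (0.72), Lmo3 (0.69), Trappc3l (0.65), Ces2g (0.65) and Ifitm10 (0.64), and for Gfra2 Cpne3 (0.72), Ndrg2 (0.68), Prokr1 (0.66), Dock10 (0.65) and Dusp5 (0.64). Gfra3 had the closest companions, Dgkg (0.81), Fam189b (0.80), Cd44 (0.79), Syt9 (0.79) and Scn10a (0.79), the last a sodium channel gene of nociceptors. Gfra4 had the weakest, led by Pdxp (0.53), Adcy2 (0.50), Psd (0.48), Tle5 (0.47) and Eid2 (0.45).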

How the data were processed

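Single neurons were sequenced with Smart-seq in 2 plates and 5 cDNA batches. The deposited table holds estimated counts per gene rounded to whole numbers, which per the submitters' processing notes were made with cutadapt and Salmon on mm10 (FastQC for quality); the authors' settings and annotation, not given in the sources used here, are unknown, and whether the counts scale with gene length could not be settled. CPM are counts-per-million of a neuron's total, per kb of the union of exons in GENCODE M21. Positive means at least 10 CPM, and Nefh-high at least 500 CPM of Nefh. Counts of the neurons of a litter were added up by skin type, class or age, filtered with filterByExpr, scaled by TMM and tested with edgeR 4.0.16 (quasi-likelihood, litter as block, Benjamini-Hochberg over all tested genes, threshold 0.05) in R 4.3.3; SE is the log2 fold change divided by the root of F. DESeq2 1.42.0 was an alternative. The 7-litter and other fits were tested on simulated data: of changes of 2, 4 and 8-fold, the hairy against glabrous fit over 12852 genes recovered 31.3%, 86.6% and 92.4%, and the Nefh-low fit over 11055 genes 0%. The age fit recovered 2.99%, 53.7% and 72.7%, and the interaction fit 0%, 16.4% and 50%, so small changes could go unseen in both. The simulated counts were negative binomial with the fitted dispersions, and whether the real counts follow this was not tested.

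The litter label pairs the groups, since neurons of both kinds came from the same litter; deviations of paired sums correlated between -0.09 and 0.33 for skin type and between -0.03 and 0.28 for class. The labels do not say whether neurons of a litter came from separate pups. Clusters were made with scanpy 1.11.5 (2000 variable genes, 20 components, 10 neighbours, Leiden resolution 1), and doublets were not called, since each sample is labelled as 1 cell. Named are all members, list genes that passed (up to 4 per direction by smallest p, otherwise the 2 with the smallest p), the 5 genes most correlated with each member, and landmark genes. The members and lists were chosen with earlier results of these data known. Alternatives were other filters, Nefh and positivity thresholds, plates, length scalings, leaving out litters, and leaving out neurons low in Tubb3, high in glial markers or with under 10000 detected genes.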

Additional observations from a re-analysis of the deposited data

Results flagged for a closer look

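In 5 of 45 groups of litter sums tested, the most extreme litter stood apart from the others by more than Dixon's 95% critical value. That value assumes normally distributed values, which plain CPM sums need not be. The 45 groups also share neurons, so no chance rate can be set beside the 5, each of which was a highest litter. In the comparison of classes, Nefh-high neurons of litter M had the highest sums of both Ret (1604 CPM) and Gfra1 (292 CPM), far above the other 6 litters. Only 2 neurons, both hairy, made up these sums of litter M. Gfra1 in hairy neurons was highest in litter K (87.99 CPM) when all neurons were summed, and in litter E_F_G (36.6 CPM) when Nefh-low neurons were summed. Gfra3 in glabrous Nefh-high neurons was highest in litter H (204.5 CPM).

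The neuron labelled as both glabrous and hairy, which entered no comparison, held 1440 CPM of Ret, 180 CPM of Gfra1 and 28.8 CPM of Gfra4, all above the limit that a count of 0 allows, while Gfra2 was at 2.51 CPM and Gfra3 at 0. It fell in cluster 4, whose other 20 neurons were all glabrous.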

How the results depend on the processing

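With edgeR no member passed between hairy and glabrous neurons of all classes (0 of 5); with DESeq2 2 passed and with no low-count filter 2 passed. Within Nefh-high neurons these counts were 1 (Gfra2) and 2 (Gfra2 and Gfra3). Between classes 2 members passed, against 1 without the neurons highest in glial markers, 0 with Nefh split at 250 CPM, 1 within plate 1, 0 within plate 2, 1 in glabrous neurons and 0 in hairy neurons; each of these restrictions but the split left 3 or 4 litters. Over all tested genes, the 12 called between hairy and glabrous neurons became 337 with DESeq2, 342 with no low-count filter and 0 without the neurons highest in glial markers, and the 2988 called between classes became 686 without those neurons. For the other settings above, the share of all genes called is not given beside the member counts. Those member counts are thus not shown to be unusual. Leaving out each litter in turn left 0 members called in the skin, age and interaction tests and 2 between classes throughout. The litter pairing changed no member's call: with no replicate block Gfra1 was at -1.07 and Gfra2 at 1.86 between hairy and glabrous neurons, and Gfra2 at -1.50 and Gfra3 at -3.05 between classes, the last pair still passing. Uncalled log2 fold changes turned sign as follows. Over all neurons, Gfra3 was 0.51 with no replicate block and 0.80 within plate 2, and Ret was -0.008 within plate 1. In Nefh-high neurons Ret was -0.31 with at least 2 neurons per sum, and Gfra1 0.11 within plate 2. In Nefh-low neurons Ret was -0.49 without neurons under 10000 detected genes, -0.19 without those high in glial markers, -0.44 without those low in Tubb3, -0.13 with no replicate block, -0.12 with Nefh split at 1000 CPM and -0.15 within plate 1. There Gfra3 was -0.59, -0.57, -0.52 and -0.34 under the detected-gene, Tubb3, no-block and 1000 CPM settings, and Gfra2 was -1.57 without the neurons highest in glial markers. Between classes Gfra1 was -0.18 within plate 1 and -0.30 in glabrous neurons, and Ret 0.23 in hairy neurons. For age Gfra2 was -0.23 without the neurons highest in glial markers, and its interaction was -0.31 and -0.0422 with Nefh split at 250 and 1000 CPM. Leaving out litters gave ranges that cross 0 for Ret (-0.0193 to 0.68), Gfra3 (-1.29 to 0.33) and Gfra4 (-0.23 to 0.0273) over all neurons, Gfra1 (-0.70 to 0.0012) in Nefh-high neurons, Ret (-0.42 to 1.11) and Gfra3 (-0.47 to 1.86) in Nefh-low neurons, Gfra2 (-0.30 to 0.83) and Gfra4 (-0.0135 to 0.10) for age, and Ret (-0.17 to 1.35) and Gfra2 (-0.0249 to 1.41) for the interaction. Without crossing 0, other uncalled values moved by over 1.5 times, among them Gfra1 between classes (0.0145 without litter M, 1.20 without litter H), Ret for age (-0.0734 without litter K, -1.28 without litter P_Q) and Ret between hairy and glabrous Nefh-high neurons (0.0789 without litter O, 0.74 without litter C_D). The hairy minus glabrous difference in the share of Ret-positive neurons with Gfra1 was 10.3 percentage points in Nefh-high neurons alone. That of Gfra3 was -17.9 with positive set at 50 CPM and -17.1 in Nefh-high neurons alone, with a range of -6.88 to 11.6 over left-out litters, and that of Gfra4 was -0.204 with positive set at 1 count, with a range of -4.04 to 5.96. The share of Nefh-high neurons led by Gfra1, 37.5% per kb, was 57.5% without length, 57.4% with positive set at 50 CPM, 52.5% with Gfra4 left out and 62.5% with both changes. The cause of these changes was not tested. A minimum of 2 neurons per sum in Nefh-low neurons left too few litters for a fit. In a median neuron 10 CPM is 7.34 counts, so lower levels were not told apart from absence.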
